A study of Mus musculus with 8 samples.

Results

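The 7 linker histone genes *H1f0*, *H1fx*, *Hist1h1a*, *Hist1h1b*, *Hist1h1c*, *Hist1h1d* and *Hist1h1e*, of 27998 genes measured, were followed through the mouse mammary epithelium over the pregnancy cycle. They were chosen by gene name together with their levels across clusters and stages, so their levels, and the differences between stages that follow from them, are given here as a description with no test. EpCAM-positive cells, depleted of cells carrying CD31, CD45 or Ter119, were sorted from untreated C57BL/6N females and profiled by droplet single-cell RNA sequencing (10x Chromium 3′ chemistry) at 4 stages with 2 mice each. The nulliparous mice (NP) were 8 weeks old, the gestation mice (G) were at day 14.5, the lactation mice (L) at day 6 and the post-involution mice (PI) were taken 11 days after natural weaning of the pups. No gene was altered in any group, and ages other than that of the NP mice were not given. Vaginal smears placed both NP mice and mouse PI2 in oestrus and mouse PI1 in dioestrus, so mouse and cycle stage cannot be told apart within PI. The authors' clusters C1 to C15 held 23183 passing cells, and UMIs (unique molecular identifiers, 1 per captured transcript) were summed for each mouse and cluster with at least 20 cells, which gave 35 sums. Levels are counts per 1000000 UMIs of the sum (CPM).

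Linker histones bind the nucleosome where DNA enters and leaves it and help fold the nucleosome fibre into more compact chromatin. The *Hist1h1* genes lie in the large histone cluster and belong to the replication-dependent class, whose transcripts rise in S phase and usually end in a stem-loop in place of a poly(A) tail. *H1f0* and *H1fx* stand apart as replacement-type genes with polyadenylated transcripts, and *H1f0* is known for accumulating in cells that stop dividing and differentiate. The libraries were primed on poly(A), so a *Hist1h1* transcript without a tail was largely outside the measurement. Levels are therefore compared between cells for each gene, and the share of a gene among linker histone UMIs is a share of what was captured.

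The genes have 1 exon each. In GRCm38 coordinates *H1f0* lies at chr15:79028450-79030504 (plus strand), *H1fx* at chr6:87980421-87981637 (minus), and the others on chromosome 13: *Hist1h1a* at chr13:23763666-23764406 (plus), *Hist1h1b* at chr13:21779883-21780625 (minus), *Hist1h1c* at chr13:23738808-23740367 (plus), *Hist1h1d* at chr13:23553262-23560686 (plus) and *Hist1h1e* at chr13:23620629-23622558 (minus). *Hist1h1e* shares 496 bases with *Hist1h2be* and 320 with the pseudogene *Gm11398* on the same strand, so its values are uncertain. *H1f0* and *H1fx* overlap the antisense genes *Gm49544* by 163 bases and *Gm5577* by 755, whose reads cannot be told apart from theirs unless counting used strand, which the sources used here do not give. All 7 genes matched RefSeq, where *H1fx* is *H1f10* and *Hist1h1a*, *b*, *c*, *d* and *e* are *H1f1*, *H1f5*, *H1f2*, *H1f3* and *H1f4*.

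The stretch from 130 to 15 bases before the RefSeq start (GRCm38.p6) is shown for the 5 genes in which it lies upstream of the annotated transcript, because these genes split into the patterns described below. Capitals mark AAACACA, the heptamer long known from H1 promoters, CCAAT, and TATAAA, each searched on both strands.
*Hist1h1a*, chr13:23763538-23763653, plus strand: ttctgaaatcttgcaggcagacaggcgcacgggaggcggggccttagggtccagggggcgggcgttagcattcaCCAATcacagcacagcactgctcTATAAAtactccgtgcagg
*Hist1h1b*, chr13:21780640-21780755, minus strand: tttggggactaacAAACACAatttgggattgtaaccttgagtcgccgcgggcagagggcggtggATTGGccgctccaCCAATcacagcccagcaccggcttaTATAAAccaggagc
*Hist1h1c*, chr13:23738677-23738792, plus strand: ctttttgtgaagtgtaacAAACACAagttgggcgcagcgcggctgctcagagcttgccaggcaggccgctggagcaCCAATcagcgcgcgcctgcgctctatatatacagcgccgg
*Hist1h1e*, chr13:23622573-23622688, minus strand: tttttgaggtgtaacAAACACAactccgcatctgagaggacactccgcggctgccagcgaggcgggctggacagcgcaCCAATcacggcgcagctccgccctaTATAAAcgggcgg
*H1f0*, chr15:79028082-79028197, plus strand: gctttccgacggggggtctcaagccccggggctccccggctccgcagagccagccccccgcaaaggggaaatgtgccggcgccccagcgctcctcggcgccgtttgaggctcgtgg

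*Hist1h1b*, *Hist1h1c*, *Hist1h1d* and *Hist1h1e* held AAACACA between 122 and 112 bases before the start, and these 4 genes and *Hist1h1a* held CCAAT between 56 and 51 bases before it. TATAAA was present in *Hist1h1a*, *Hist1h1b*, *Hist1h1d* and *Hist1h1e*. None of the 3 motifs was in the 300-base RefSeq promoters of *H1f0* and *H1fx*, which do not sit at the annotated transcript starts. The *H1f0* promoter ended at chr15:79028261, upstream of the transcript start at 79028450. The *H1fx* promoter began at chr6:87981732 and held the transcript start at 87981637 within it. Bases between the promoter and the annotated start of *H1f0*, and those beyond 87981732 for *H1fx*, were not searched. Over 32851 RefSeq promoters of that length, 7.18% held AAACACA, 37.4% CCAAT, 13.6% TATAAA, 2.67% the first pair and 0.548% all 3.

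The histone stem-loop is shown because it bears on which transcripts poly(A) priming captures. Capitals mark the paired stem and its loop in the annotated transcripts, written as DNA.
*Hist1h1c*: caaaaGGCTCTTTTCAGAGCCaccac
*Hist1h1d*: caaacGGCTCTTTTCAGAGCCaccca
*Hist1h1e*: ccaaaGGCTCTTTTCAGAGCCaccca
*Hist1h1a*: ccaacgGCTCTTTTCAGAGC
The stem-loop lay 15 bases from the annotated 3′ end in *Hist1h1a*, where the transcript stops 1 base short of the full stem. It lay 856, 4900 and 1169 bases from the end in *Hist1h1c*, *Hist1h1d* and *Hist1h1e*, whose annotated transcripts run on past it. AATAAA, the usual polyadenylation signal, stood 26 bases from the end in *Hist1h1c*, 22 in *H1f0* and 21 in *H1fx*. The annotated *Hist1h1b* transcript ends at its stop codon and shows no stem-loop.

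The libraries held 13785920 to 35711533 UMIs, with a median of 3770 to 9624 per passing cell and 0.645 to 0.884% mitochondrial UMIs. Of the barcode sequences, 392 occurred in more than 1 library, but none was shared between passing cells. Marker genes matched the authors' names in the main: *Krt18* was at 2302 to 9818 CPM in the luminal clusters apart from C9, *Prlr* at 811 to 3079 in C1 to C5, and *Acta2* at 2008 to 26577 in the basal clusters C12 to C15. C15, named for *Procr*, held pericyte markers at 5441 and 4819 CPM and *Epcam* at 18.6 and 13.3, against *Epcam* at 132.8 and 161.7 in C14. In the 2 L mice the alveolar clusters C9 and C11 also held *Acta2*, at 621 to 3659 CPM. C12 at PI went against its name in mouse PI2, whose 53 cells held *Prlr* at 680 CPM, while the 27 cells of PI1 held none. At NP, C12 also held *Krt18* at 1864 and 1160 CPM, against 183 and 182 in C13. In 25009 passing cells *Hist1h1c* gave 56101 UMIs, *H1f0* 43834, *Hist1h1e* 18013, *Hist1h1b* 10100, *Hist1h1a* 2154, *H1fx* 1448 and *Hist1h1d* 1328. The germ-line genes *Hist1h1t*, *Hils1*, *H1foo* and *H1fnt* gave 5, 3, 2 and 0 UMIs.

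*H1f0* was highest in differentiated hormone-sensing cells after involution and lowest in luminal progenitors of the same mice. In C3 (differentiated hormone-sensing, PI) its level was 555 and 663 CPM in the 2 mice, and in the PI cells of C4 (differentiated hormone-sensing, mainly NP) 414 and 538. In C7 (luminal progenitors, PI) it was 31.1 and 38.5 CPM. The mean over mice thus ran from 34.8 ± 5.2 to 608.6 ± 76.4 CPM (SD, n = 2), a ratio of 17.5. C3, C4 at PI, C13, C12 at NP, C9 and C7 each stood clear of the neighbour below or above them in this order, whereas the 11 groups from C1 down to C8 overlapped their neighbours.

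Within that overlapping middle, hormone-sensing progenitors held 294 and 334 CPM of *H1f0* at PI (C1) and 250 and 274 at NP (C2). Nulliparous differentiated hormone-sensing cells (C4) held 242 and 265 CPM, and their gestation counterpart C5, with 20 and 41 cells, 187 and 302. NP luminal progenitors (C6) held 207 and 360 CPM. Every mouse thus held 187 CPM or more in each hormone-sensing cluster. Alveolar progenitors held 117 and 191 CPM at G (C10) and 239 and 353 at L (C11). Differentiated alveolar cells held 134 and 129 CPM at G (C8) and 75.1 and 58.0 at L (C9). In the basal layer *H1f0* was at 78.5 and 75.5 CPM at NP (C12), 118 and 115 at G (C13), and 195 and 152 in lactation myoepithelium (C14), with 208 and 169 in C15. The PI cells of C12 differed between mice, with 35.9 CPM from 4 UMIs in PI1 and 317 CPM in PI2.

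*Hist1h1c*, whose captured transcripts were the most numerous, followed *H1f0* in its extremes. It was at 546 and 1149 CPM in C3 and at 26.1 and 42.5 in C7, and the means spanned a ratio of 24.7. The 2 PI mice differed more for this gene than for *H1f0*: mouse PI2 lay above PI1 in C1 (489 against 235 CPM), C3 and C4 (942 against 342), and the 3 highest group means overlapped. C4 at NP held 411 and 434 CPM, C2 256 and 283, and C5 349 and 213. C11 held 391 and 656 CPM, C10 145 and 204 and C8 173 and 193. The PI cells of C12 differed between mice, with 26.9 CPM from 3 UMIs in PI1 and 314 in PI2. Each mouse of the remaining groups lay at 179 CPM or less apart from the 22 cells of PI1 in C6 (198), with C13 179 and 149, C15 137 and 156, C6 at NP 113 and 152, C14 79.0 and 112, C12 at NP 69.8 and 82.4, and C9 73.4 and 67.4. C6 at NP stood above C14, and C9 above C7, with no overlap. The order differed from that of *H1f0* in the basal layer, where C14 lay above C13 in both mice for *H1f0* and below it in both for *Hist1h1c*.

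**Figure D1:**
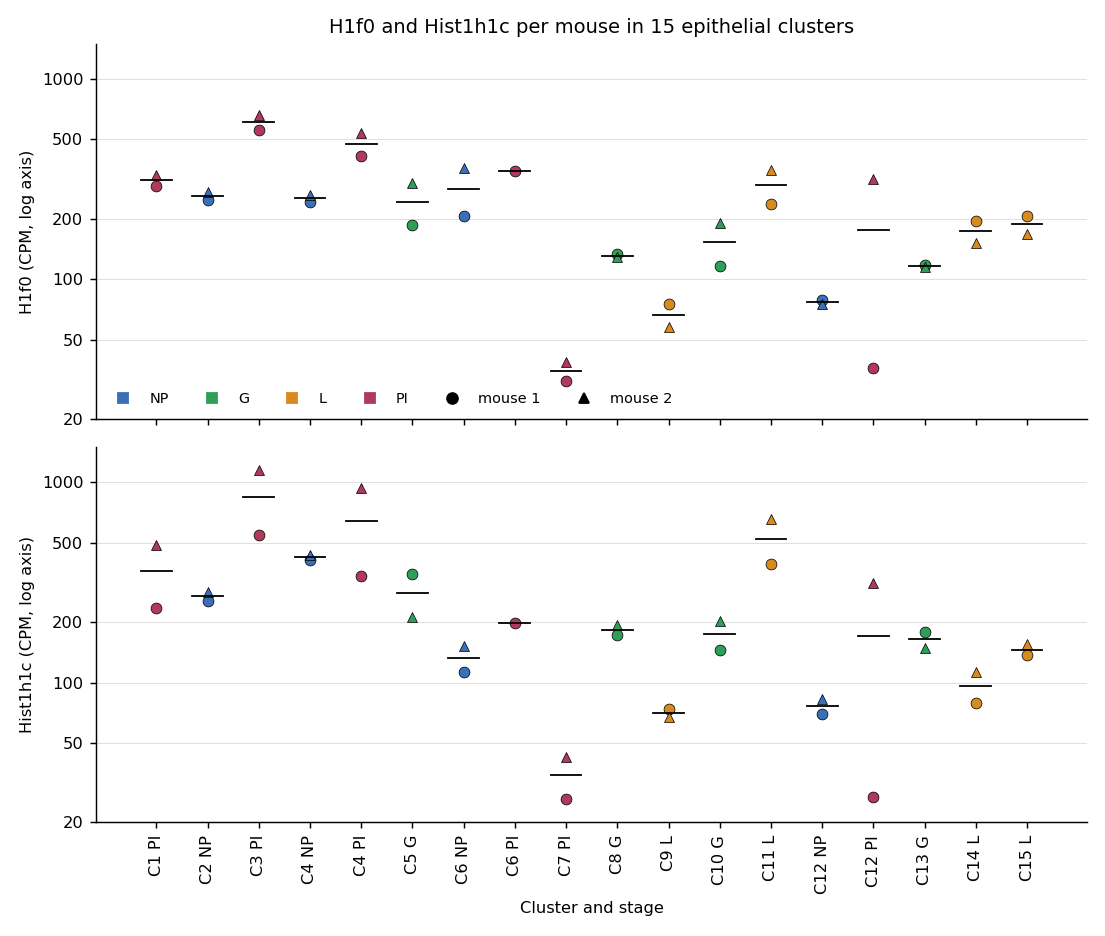
Levels of *H1f0* (top) and *Hist1h1c* (bottom) in CPM on a log axis for each mouse (points) in each cluster and stage, with the mean as a line. Both genes peak in C3 at PI, at 555 to 663 and 546 to 1149 CPM, and are lowest in C7 at PI.

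*Hist1h1b*, a replication-dependent linker histone, was concentrated in the gestation gland. Its level was 196 and 238 CPM in alveolar progenitors (C10) and 155 and 157 in differentiated alveolar cells (C8), each group clear of the next. Basal cells of the same mice (C13) held 52.8 and 50.6 CPM, and C5 held 32.5 and 73.5 from 4 and 19 UMIs. For comparison, the milk gene *Csn2*, a gauge of free RNA, was at 31078 and 20282 CPM in C8 and at 635 and 354 in C13. Outside gestation no mouse exceeded 20.7 CPM in a cluster except L2 in C15, at 53.4 CPM from 12 UMIs. The lowest mean, 1.55 ± 0.49 CPM (SD, n = 2), was in lactation myoepithelium (C14), and the ratio of the extremes was 140, the widest among the 6 genes whose lowest mean was above 0.

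*Hist1h1a* and *Hist1h1d*, of the same replication-dependent class, showed the same gestation peak at lower levels. The replacement-type *H1fx* had its highest mean in C10, but lactation C15 overlapped C8. *Hist1h1a* was at 40.8 and 31.3 CPM in C8 and 38.3 and 33.1 in C10. It was at 7.40 and 9.40 CPM in C11 and 3.79 and 3.20 in C13, and gave 0 UMIs in the PI cells of C4, where 3 UMIs would be 9.49 and 5.75 CPM. *Hist1h1d* was at 15.7 and 19.1 CPM in C8, 22.2 and 18.1 in C10 and 5.31 and 5.26 in C13. Its values in C11, 6.48 and 15.3 CPM, lay below both C10 mice. *H1fx* was at 13.2 and 17.5 CPM in C8, 19.9 and 29.9 in C10, 9.10 and 8.69 in C13 and 13.97 and 17.8 in C15. In C5 it was at 0 and 34.8 CPM from 0 and 9 UMIs. It was at 2.27 and 1.93 CPM in C14 and 1.62 and 1.51 in C7, so its ratio of extremes was 15.9.

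*Hist1h1e*, also replication-dependent, was highest in alveolar progenitors of both gestation and lactation. It was at 197 and 284 CPM in C10, followed by C11 (170 and 230), C8 (161 and 179), C6 at NP (83.9 and 162) and C13 (88.5 and 94.7), which overlapped as neighbours down to C13. All other groups of 2 mice lay at 83.2 CPM or less, with C7 at 44.6 and 51.0 and C14 at 29.4 and 22.4, while the 22 cells of mouse PI1 in C6 held 145. Its ratio of extremes, 11.4, was the smallest.

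**Figure D2:**
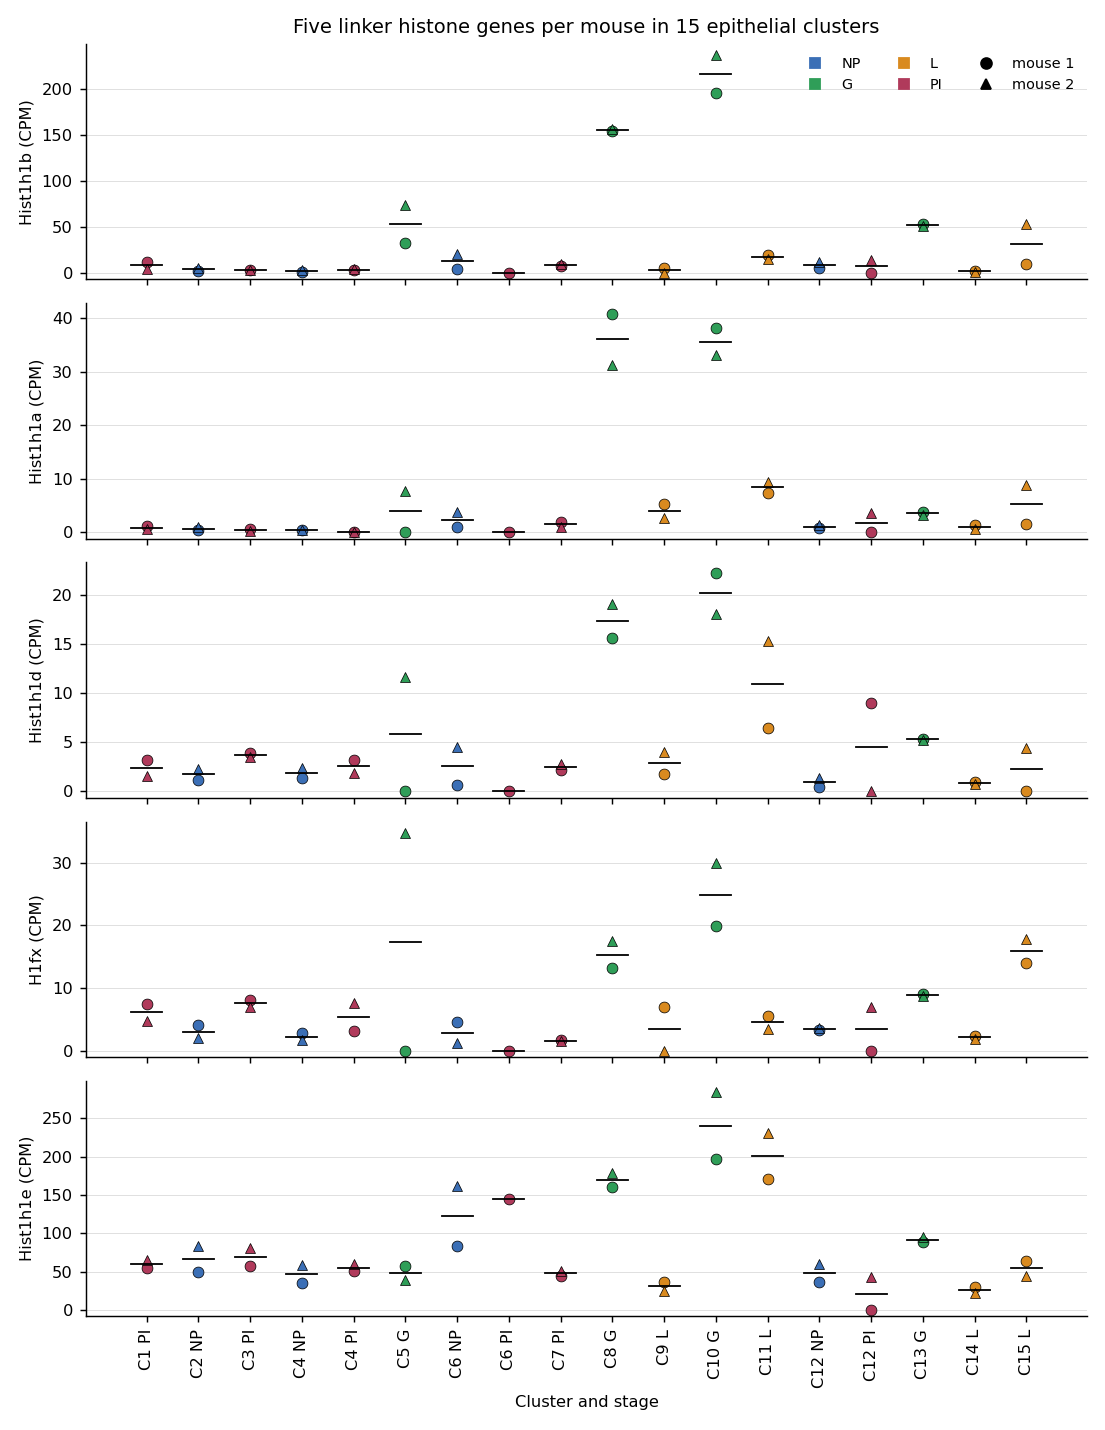
Levels in CPM of *Hist1h1b*, *Hist1h1a*, *Hist1h1d*, *H1fx* and *Hist1h1e* for each mouse (points) in each cluster and stage, with the mean as a line. The gestation clusters C8 and C10 are highest for *Hist1h1b*, at 155 to 238 CPM, while *Hist1h1e* stays at 170 and 230 CPM in lactation progenitors (C11).

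The make-up of the captured linker histone UMIs differed between clusters. In C3 *Hist1h1c* made up 53.4% ± 9.7 and *H1f0* 41.0% ± 8.8 (SD, n = 2), and *Hist1h1e* 4.56% ± 0.49. In C8 no gene dominated: *Hist1h1c* took 25.8% ± 1.1, *Hist1h1e* 23.9% ± 1.0, *Hist1h1b* 22.0% ± 0.5, *H1f0* 18.6% ± 1.1 and *Hist1h1a* 5.10% ± 1.12. In C7, where the summed level was 115 and 147 CPM against 1174 and 1906 in C3, *Hist1h1e* led with 36.7% ± 3.0. *H1f0* had its largest share in C14, 57.6% ± 7.7, followed by NP luminal progenitors (C6) with 50.6% ± 0.8.

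**Figure D3:**
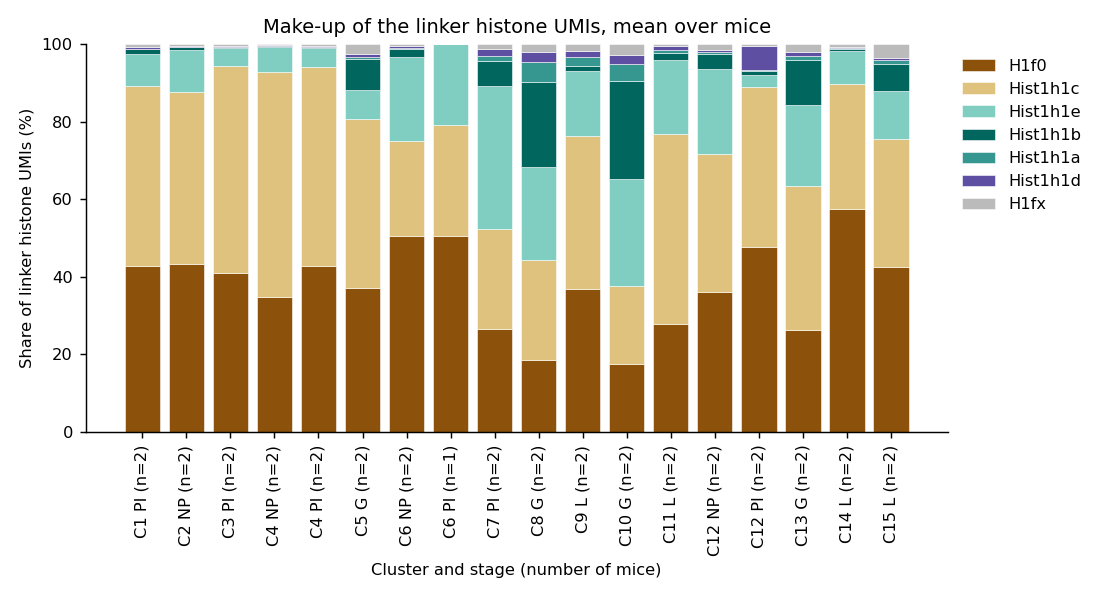
Share of each gene among the captured UMIs of the 7 linker histone genes, in percent, as the mean over mice for each cluster and stage. *H1f0* and *Hist1h1c* fill most of each hormone-sensing bar (41.0% and 53.4% in C3), while C8 and C10 hold 22.0% and 25.2% *Hist1h1b*.

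Across the 35 sums *H1f0* and *Hist1h1c* formed a pair. *Hist1h1a*, *Hist1h1b*, *Hist1h1d* and *H1fx* formed a group, with correlations of 0.604 to 0.886 among them. *Hist1h1e* correlated at 0.389 to 0.609 with that group and at 0.337 and 0.395 with the pair. These correlations are descriptions, since sums from the same mouse share a library and its depth. *H1f0* and *Hist1h1c* ran together (Pearson r = 0.886 on log2(CPM + 10)), and each was the gene most like the other among 5703 genes with a mean of 20 CPM or more. *H1f0* was next most like *Dusp22*, a phosphatase (r = 0.813), and *Tmsb4x*, an actin-binding peptide (r = 0.804). *Hist1h1c* was next most like the core histone *Hist1h2bc* (r = 0.846) and *2310030G06Rik* (r = 0.802). *Hist1h1b* was most like *Birc5* (r = 0.945), *Mki67* (r = 0.940) and *2810417H13Rik* (r = 0.929), and *Hist1h1a* like *Birc5* (r = 0.945), *Hist1h2ae* (r = 0.929) and *Ube2c* (r = 0.916). *Birc5*, *Mki67* and *Ube2c* are genes of dividing cells. *Hist1h1d* was most like *Birc5* (r = 0.823), *Pmf1* (r = 0.813) and *Ube2c* (r = 0.809), and *H1fx* like *Smc2* (r = 0.829), *Top2a* (r = 0.819) and *2810417H13Rik* (r = 0.789). *Hist1h1e* was instead most like *Ccnd1*, cyclin D1 (r = 0.879), *Notch1* (r = 0.789) and *Sh3bgrl3* (r = 0.789). Against the summed level of 20 genes of G2 and M phase, r was 0.902 for *Hist1h1b*, 0.866 for *Hist1h1a*, 0.774 for *H1fx*, 0.731 for *Hist1h1d*, 0.568 for *Hist1h1e*, -0.051 for *Hist1h1c* and -0.147 for *H1f0*.

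The comparison of PI with NP sets mice after a completed pregnancy cycle against nulliparous mice. Age was given only for the NP mice, and mouse PI1 was in dioestrus while both NP mice were in oestrus. Parity therefore cannot be told apart from age, nor in PI1 from cycle stage. In luminal progenitors (C6 and C7 together) *H1f0* was at 207 and 359 CPM in the NP mice and at 37.5 and 39.3 in the PI mice, a log2 difference of -2.88. *Hist1h1c* went from 113 and 154 to 29.6 and 43.1 CPM (-1.87) and *Hist1h1e* from 83.9 and 161 to 46.7 and 51.5 (-1.32). The NP and PI mice did not overlap for these 3 genes and overlapped for the other 4, of which *Hist1h1b* was at 4.23 and 21.1 CPM at NP and 7.29 and 9.72 at PI. Stage and cluster cannot be told apart here, since nearly all NP cells are C6 and nearly all PI cells C7. The 22 cells of mouse PI1 that the authors placed in C6 held *H1f0* at 349 CPM, *Hist1h1c* at 198 and *Hist1h1e* at 145, within the range of the NP mice for *H1f0* and *Hist1h1e* and above it for *Hist1h1c*. Of 10766 genes tested, 26.9% passed the edgeR quasi-likelihood test at an adjusted p of 0.05, 27.2% were higher in both PI mice and 38.6% lower in both. Nothing is read from the members' count, as the members were chosen on these levels.

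Related chromatin genes were tested in the same luminal progenitors. Of 11 tested histone chaperones and HMG proteins, which carry histones or bind the nucleosome, 5 fell and 1 rose after involution, with a median log2 change of -0.27 against -0.02 over all genes. *Hmga1* fell by 1.59 on the log2 scale (SE 0.20, edgeR quasi-likelihood adjusted p = 0.000232), from 93.9 and 129 to 41.4 and 28.6 CPM. *Hmgb2* fell by 1.25 (SE 0.16, edgeR adjusted p = 0.000244) and *Hmgn2* by 0.67 (SE 0.17, edgeR adjusted p = 0.0135). Of 9 tested core histone genes of the replication-dependent class 2 fell, *Hist1h4d* among them by 1.30 (SE 0.26, edgeR adjusted p = 0.00435). The replacement histone *H2afz* fell by 0.94 (SE 0.14, edgeR adjusted p = 0.000569) and *H2afv* rose by 0.54 (SE 0.17, edgeR adjusted p = 0.0404). None of 9 histone mRNA processing genes passed the edgeR test, 2 had an unadjusted p under 0.05, and DESeq2 also called 0. Of 16 S-phase genes 2 fell (median 0.09), and of 11 genes of G2 and M phase 1 rose, with a median of 0.97 and a summed level of 18.4 and 91.5 CPM at NP and 73.4 and 62.1 at PI. DESeq2 called 0 of either list. Several counts moved with 1 mouse: without NP2 the edgeR test called 9 genes of G2 and M phase, 3 chaperone and HMG genes and 1 core histone gene, and without NP1 it called 0 genes of G2 and M phase, 1 S-phase gene and 1 replacement histone gene. Without PI1 it called 0 S-phase genes, 1 core histone gene and 4 replacement histone genes, and without PI2 1 replacement histone gene. All 7 milk protein genes tested rose, and their summed level was 770 and 1445 CPM at NP and 13390 and 14590 at PI. Fibroblast markers were at 11.5 and 195 CPM at NP and 0.530 and 23.7 at PI (2 of 4 tested fell), and immune markers at 11.5 and 15.3 against 34.5 and 39.4 (2 of 3 rose, *Cd3e* at 0 in all 4 mice). Dissociation stress genes were at 9737 and 8295 against 8187 and 8472 CPM, and 2 of 12 fell. The part of these markers in the linker histone differences was not tested.

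In differentiated hormone-sensing cells (C3 and C4 together) the difference ran the other way. *H1f0* was at 242 and 265 CPM in the NP mice and 542 and 659 in the PI mice, a log2 difference of 1.24. *Hist1h1c* was at 412 and 434 CPM at NP and 528 and 1142 at PI (0.98). *H1fx* was at 2.90 and 1.65 CPM at NP and 7.67 and 7.04 at PI (1.69). *Hist1h1d* (0.97) and *Hist1h1b* (0.77) were also higher in both PI mice at 3.84 CPM or less, while *Hist1h1a* and *Hist1h1e* overlapped. Within C4 alone *H1f0* was still higher at PI, with 414 and 538 CPM against 242 and 265, but *Hist1h1c* overlapped, because PI1 held 342 CPM. Of 11994 genes tested, 14.3% passed the edgeR test, 30.7% were higher in both PI mice and 25.6% lower in both. Nothing is read from the members' count here either.

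Among related genes in these cells, 3 of 20 tested core histone genes rose and 1 fell, with a median log2 change of 0.36 against -0.02 over all genes. *Hist1h4i* rose by 1.18 on the log2 scale (SE 0.18, edgeR quasi-likelihood adjusted p = 0.00171), from 22.4 and 21.9 to 43.0 and 58.8 CPM, and *Hist3h2ba* by 1.14 (SE 0.18, edgeR adjusted p = 0.00159). *Hist1h4h* fell by 0.82 (SE 0.16, edgeR adjusted p = 0.00608). *H2afz* fell by 1.13 (SE 0.15, edgeR adjusted p = 5e-04). Of 11 chaperone and HMG genes 3 fell, namely *Hmgb3*, *Hmgn2* and *Hmga1*, by 0.69 to 0.83. The S-phase genes (0 of 18 called, 4 at an unadjusted p under 0.05) and the histone mRNA processing genes (0 of 9 called, 0 at an unadjusted p under 0.05) gave no call by edgeR and 0 by DESeq2. Of 8 genes of G2 and M phase 2 fell, and their summed level was 26.7 and 57.4 CPM at NP and 21.1 and 14.4 at PI. That count was 8 without NP1, 0 without NP2, 6 without PI1 and 4 without PI2. Without PI1 the edgeR test called 9 core histone genes, without PI1 or PI2 1 S-phase gene, without NP1 or NP2 1 replacement histone gene, and without NP2 1 chaperone or HMG gene. Milk protein genes were at 14.5 and 11.9 CPM in sum at NP and 73.4 and 83.5 at PI (4 of 4 rose). Endothelial markers were at 25.2 and 29.4 CPM at NP and 16.4 and 10.9 at PI, and the 1 tested, *Eng*, fell. Fibroblast markers were at 10.8 and 25.0 against 3.29 and 13.8 CPM (1 of 6 fell). Their part in the linker histone differences was not tested.

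In hormone-sensing progenitors *H1f0* was at 250 and 274 CPM at NP and 301 and 336 at PI, a log2 difference of 0.28 with no overlap. *Hist1h1c* overlapped, at 255 and 283 CPM at NP and 249 and 491 at PI.

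**Figure D4:**
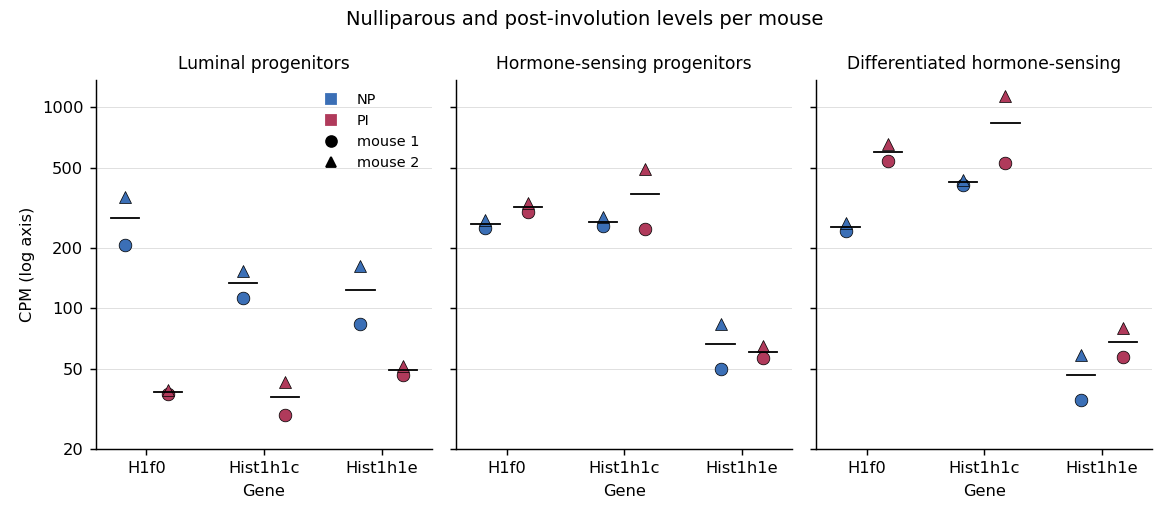
Levels of *H1f0*, *Hist1h1c* and *Hist1h1e* in CPM on a log axis for each NP and PI mouse (points, mean as a line) in 3 luminal lineages. In luminal progenitors *H1f0* lies at 37.5 and 39.3 CPM at PI, below 207 and 359 at NP, and in differentiated hormone-sensing cells at 542 and 659 at PI, above 242 and 265 at NP.

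Between gestation and lactation the alveolar progenitors (C10 and C11) split the genes. *H1f0* was at 117 and 191 CPM in the G mice and 252 and 352 in the L mice (log2 difference 0.97), and *Hist1h1c* at 145 and 204 against 380 and 643 (1.55). *Hist1h1b* was at 196 and 238 CPM in the G mice and 22.2 and 20.7 in the L mice (-3.34). *H1fx* (-2.24), *Hist1h1a* (-2.13) and *Hist1h1d* (-0.81) were also lower in both L mice, and *Hist1h1e* overlapped at 197 and 284 against 181 and 246 CPM. Of 8446 genes tested, 28% passed the edgeR test, 21.4% were higher in both L mice and 49.1% lower in both. The counts of members in this comparison and the basal ones below come from levels that chose the members, and nothing is read from them.

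Genes of proliferation fell in alveolar progenitors at L. Of 17 tested S-phase genes 16 fell, *Dtl* by 2.66 on the log2 scale (SE 0.31, edgeR quasi-likelihood adjusted p = 0.000306), and of 18 genes of G2 and M phase 15 fell, *Kif11* by 2.62 (SE 0.40, edgeR adjusted p = 0.00133). *Nasp*, a chaperone of histones that include H1, fell by 1.56 (SE 0.22, edgeR adjusted p = 0.000771), from 150 and 145 to 31.9 and 51.8 CPM, and 6 of 11 genes of its list fell. Of 9 histone mRNA processing genes 4 fell, *Ncbp1* by 1.44 (SE 0.33, edgeR adjusted p = 0.00992). DESeq2 called 0 of the processing genes and 7 of the S-phase genes, and edgeR called 2 processing genes without G2 or without L1 and 4 core histone genes without G1. Of 8 tested core histone genes 1 rose and 1 fell. *Hist1h2bc* rose by 1.56 (SE 0.20, edgeR adjusted p = 0.000513), from 94.9 and 127 to 304 and 234 CPM, and *Hist1h2ae* fell by 1.53 (SE 0.37, edgeR adjusted p = 0.0135). *H3f3b*, a replacement H3 gene, rose by 1.18 (SE 0.22, edgeR adjusted p = 0.00414) and *Cenpa*, the centromeric H3, fell by 1.70 (SE 0.28, edgeR adjusted p = 0.00217). Dissociation stress genes moved with the comparison (11 of 12 rose, summed level 13290 and 11020 CPM at G and 27270 and 20080 at L), as did immune markers (2 of 3 rose, 44.4 and 47.4 against 326 and 246, *Cd3e* at 0 in all 4 mice) and fibroblast markers (2 of 2 rose, 30.6 and 22.5 against 126 and 70.2). Milk protein genes (8 of 8 rose) were at 4077 and 2032 CPM in sum at G and 69640 and 57940 at L, and myoepithelial *Acta2* was at 88.0 and 122 CPM in C10 and 3659 and 2439 in C11. The part of these genes in the linker histone differences was not tested.

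In basal cells all 7 genes were higher in both G mice than in both NP mice (C12 and C13). *H1f0* was at 78.5 and 75.6 CPM at NP and 118 and 116 at G (log2 difference 0.60), and *Hist1h1c* at 69.8 and 82.8 against 179 and 148 (1.10). *Hist1h1b* was at 5.41 and 12.7 CPM at NP and 53.2 and 49.8 at G (2.50), *Hist1h1e* at 35.7 and 59.6 against 89.2 and 94.3 (0.94), and *H1fx* at 3.29 and 3.64 against 9.08 and 9.20 (1.40). *Hist1h1a* and *Hist1h1d* rested on 2 or 3 UMIs in each NP mouse and 14 to 23 in each G mouse. Of 11084 genes tested, 46.2% passed the edgeR test, 33.5% were higher in both G mice and 40.7% lower in both.

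Cell-cycle genes rose in the same comparison. Of 20 genes of G2 and M phase 19 rose (median log2 change 4.25), their summed level going from 24.4 and 41.4 to 475 and 333 CPM, with *Ube2c* up by 4.86 (SE 0.39, edgeR quasi-likelihood adjusted p = 1.15e-07). Of 18 S-phase genes 10 rose and 2 fell. *Hmgn3*, a nucleosome-binding protein, rose by 2.08 (SE 0.19, edgeR adjusted p = 3.94e-07) and *Hmga1* fell by 1.21 (SE 0.18, edgeR adjusted p = 5.17e-05), in a list of 11 of which 4 rose and 5 fell. *Casp8ap2*, which acts in histone mRNA processing, fell by 1.24 (SE 0.20, edgeR adjusted p = 0.000134), 1 of 3 that fell among 9 processing genes, of which 1 rose. Of 10 core histone genes 2 rose and 1 fell. DESeq2 called 6 S-phase, 2 processing and 1 core histone gene, and edgeR called 7 S-phase genes without NP1 and 6 core histone genes without G2. Luminal markers differed between the clusters. *Krt18* was at 1864 and 1160 CPM in C12 at NP and 183 and 182 in C13, and *Prlr* at 198 and 221 against 1.77 and 5.26. Among markers of other cells, fibroblast genes were at 185 and 271 CPM at NP and 891 and 686 at G (5 of 6 rose), immune genes at 91.7 and 124 against 228 and 259 (3 of 4 rose, *Cd3e* at 0 in NP), pericyte genes at 9.64 and 5.01 against 24.0 and 35.0 (2 of 3 rose), endothelial genes at 17.2 and 13.7 against 22.4 and 24.0 (2 of 5 rose), milk protein genes at 78.3 and 51.4 against 1779 and 939 (5 of 6 rose), and dissociation stress genes at 4038 and 3745 against 8148 and 5104 (10 of 12 rose). Their part was not tested.

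In basal cells at L compared with G (C13 and C14) every gene except *H1f0* was lower. This comparison shares its G mice with the one before, so the 2 are not independent. *H1f0* was at 119 and 115 CPM at G and 196 and 152 at L (log2 difference 0.57). *Hist1h1b* was at 52.7 and 50.6 CPM at G and 1.89 and 1.20 at L (-5.06), from 40 and 20 UMIs in the L mice. The differences were -2.66 for *Hist1h1d*, -2.08 for *H1fx*, -1.85 for *Hist1h1a*, -1.82 for *Hist1h1e* and -0.78 for *Hist1h1c*, with no overlap for any. Of 12708 genes tested, 48.2% passed the edgeR test, 35.2% were higher in both L mice and 42% lower in both.

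All 20 genes of G2 and M phase fell in lactating basal cells (median log2 change -3.96), *Mki67* by 4.53 (SE 0.27, edgeR quasi-likelihood adjusted p = 1.22e-05), and 13 of 19 S-phase genes fell. Among the chaperones and HMG proteins 6 of 11 fell and 1 rose, with *Nasp* down by 1.21 (SE 0.14, edgeR adjusted p = 0.000302) and *Set* by 0.66 (SE 0.11, edgeR adjusted p = 0.00157). *Cenpa* fell by 4.07 (SE 0.39, edgeR adjusted p = 9.94e-05), 1 of 5 replacement core histone genes of 9 that fell, with 2 that rose. *Hist1h2bc* rose by 0.71 (SE 0.19, edgeR adjusted p = 0.0132), 1 of 3 that rose among 17 core histone genes, of which 2 fell. Of 9 histone mRNA processing genes 4 fell and 1 rose, with 3 called by DESeq2 and 3 by edgeR without L1, and without G2 edgeR called 3 core histone genes. Dissociation stress genes all rose (12 of 12, summed level 8202 and 5136 CPM at G and 35190 and 29290 at L), and pericyte markers were at 23.7 and 35.2 against 109 and 53.4 CPM (1 of 4 rose). Endothelial markers were at 22.4 and 24.3 against 53.8 and 25.0 CPM (1 of 5 rose) and milk protein genes at 1777 and 942 against 1814 and 2121 (3 of 8 rose and 1 fell). Immune markers were at 228 and 261 against 145 and 124 CPM (2 of 5 fell, *Cd3e* at 0 in L), and fibroblast markers at 911 and 694 against 662 and 515, with 0 of 6 called and 0 at an unadjusted p under 0.05 by edgeR. Their part was not tested.

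In differentiated alveolar cells (C8 and C9) all 7 genes were lower in both L mice. The share of all genes that were lower was not taken for this comparison, so nothing is read from that count. *H1fx* gave only 4 and 0 UMIs in C9. *H1f0* was at 134 and 129 CPM at G and 76.2 and 57.7 at L, and *Hist1h1c* at 173 and 193 against 81.4 and 67.1. Milk protein transcripts made up much of C9, at 447540 and 417200 CPM. With the milk protein genes left out of the totals, *H1f0* was at 148 and 137 CPM at G and 137 and 98.9 at L, the log2 difference going from -0.97 to -0.27, and *Hist1h1c* at 192 and 205 against 146 and 115, going from -1.30 to -0.60. *Hist1h1b* gave 4102 and 3456 UMIs in C8 and 3 and 0 in the 89 cells of C9, where 3 UMIs correspond to 5.24 and 4.04 CPM.

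The split of cells by cell-cycle transcripts within a cluster was not used to choose the genes and could be tested. Cells with UMIs of at least 3 of 20 genes of G2 and M phase formed a G2/M class, and of the other cells those with at least 5 of 20 S-phase genes formed an S class. The UMIs of each gene in a class were set against those expected at the level of the remaining cells of the same mouse and cluster, and the log2 ratio (with 0.5 added to both) was tested over mice by an exact two-sided sign-flip permutation test, adjusted over 14 tests. The G2/M class held 1286 and 1096 cells in the G mice (50.1% and 42.3%) and 13 to 35 in each other mouse (0.393 to 1.81%). Its cells were deeper than the rest, with a median of 13048 and 12063 UMIs against 7354 and 6249 in the G mice. The S class was at 10986 and 8402 there. In the other mice the medians were 8963 to 31893 UMIs in the G2/M class and 11262 to 24861 in the S class, against 3681.5 to 9514.5 in the rest. Both classes thus favoured deep cells. When 2000 UMIs were drawn from each cell, the G2/M class took 31.5% and 26.9% of the G cells. It took 0.047 to 0.903% of the others, leaving out 285 shallower L cells. The class differed between clusters of 1 library, with 59.0% and 51.7% of C8 against 18.3% and 13.97% of C13 in the G mice, and 4.23% of C11 against 0.388% of C14 in mouse L1.

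*Hist1h1b* was higher in the G2/M cells of all 8 mice, by a mean log2 ratio of 4.58 (SD 0.86, range 3.59 to 5.83), or 23.9-fold (exact permutation p = 0.00781, adjusted p = 0.0219). That p is the smallest 8 mice can give. In C8 its level was 210 and 218 CPM in G2/M cells and 11.3 and 16.4 in the others, and in C7, the post-involution luminal progenitors, 192 and 256 against 1.31 and 2.35. *Hist1h1a* (mean 3.38, SD 1.20), *H1fx* (2.12, SD 0.88), *Hist1h1e* (2.02, SD 0.88) and *Hist1h1d* (1.99, SD 0.85) were likewise higher in 8 of 8 mice, each with the same exact permutation p and adjusted p. The smallest ratios rested on few UMIs, as in mouse NP1, where *Hist1h1d* gave 1 UMI against 0.63 expected. In C7 *Hist1h1e* was at 486 and 494 CPM in the 23 and 21 G2/M cells and at 29.5 and 37.4 in the other cells.

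*H1f0* was higher in the G2/M cells of 7 of 8 mice, by a mean of 0.58 (SD 0.64, range -0.54 to 1.32), and did not pass the exact permutation test after adjustment (adjusted p = 0.109). In C8 it was at 161 and 158 CPM in G2/M cells against 64.9 and 64.2 in the others. *Hist1h1c* was higher in 3 mice and lower in 5, with a mean of -0.05 (SD 0.30, range -0.38 to 0.47, exact permutation adjusted p = 0.952). In C8 it was at 170 and 187 CPM in G2/M cells against 194 and 221 in the others, whereas in C7 it was higher in both mice, at 85.2 and 192 CPM from 20 and 45 UMIs against 24.1 and 38.3. *H1f0* and *Hist1h1c*, so alike across clusters, thus differed in these cells of the same mice by their point values, a difference that was not itself tested. In the S class, 7 to 133 cells in each mouse and 7 mice with at least 10, no gene passed the exact permutation test (adjusted p from 0.1875 to 0.969). Cells that met both rules were counted in the G2/M class. The S class therefore does not cover every cell with S-phase transcripts, and its ratios do not show that the genes stay level in S phase. The largest mean ratios were -0.92 (SD 1.16) for *Hist1h1d*, lower in 6 of 7 mice, and 0.64 (SD 1.09) for *Hist1h1a*, higher in 4 of 7. Both rested on few UMIs. *Hist1h1d* gave 0 UMIs in NP1, NP2, L1 and PI2 against 0.549 to 1.82 expected, so those ratios depend on the added 0.5. *Hist1h1a* gave 1, 2 and 1 UMIs in NP1, NP2 and L1 against 0.549, 0.254 and 0.160 expected, and 14 in G1 against 2.74.

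**Figure D5:**
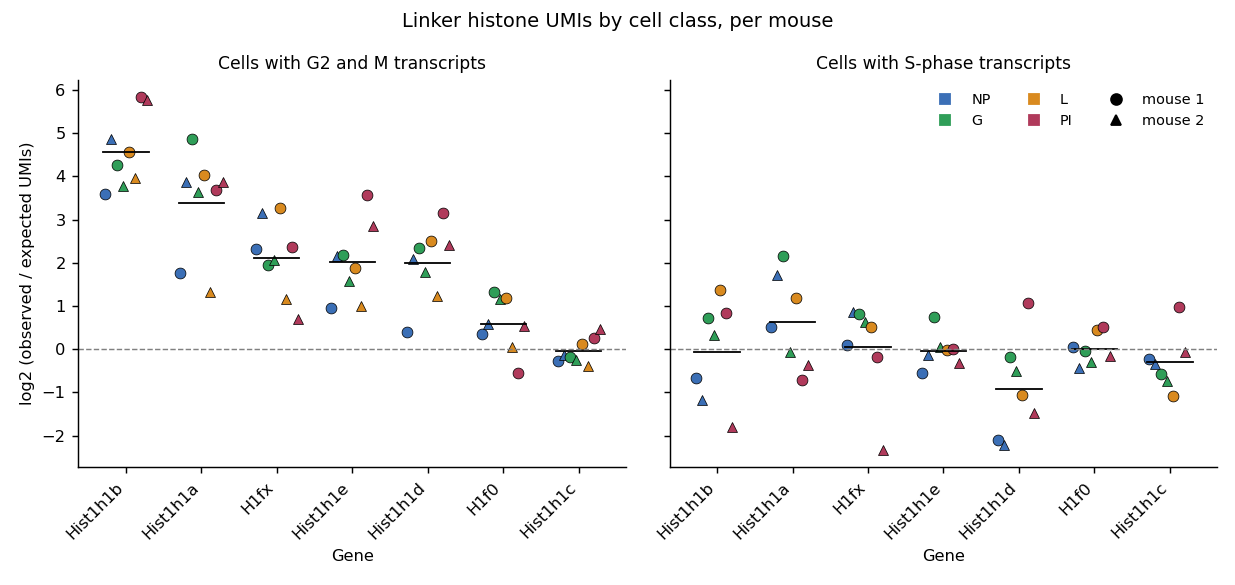
Log2 ratio of observed to expected UMIs of each gene in cells with G2 and M phase transcripts (left, 8 mice) and with S-phase transcripts (right, 7 mice), with a point for each mouse and the mean as a line. *Hist1h1b* lies between 3.59 and 5.83 in the left panel, *Hist1h1c* between -0.38 and 0.47, and the right panel is spread around 0.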

How the data were processed

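The authors aligned reads to mm10 with Cell Ranger (STAR per the labels, no version given there), and deposited raw UMI counts per gene and cell barcode for each library. They called cell barcodes, filtered cells, clustered them and removed cells sharing a barcode between libraries. Their annotation supplied the cluster and filter flag of each cell, and a deposited fraction of mitochondrial UMIs per cell. Doublets kept their own cluster, C20, outside the 15 epithelial clusters, and no other doublet caller was run here.

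Counts of passing cells were summed per mouse and cluster (at least 20 cells), with CPM over all UMIs of the sum. The 2 mice of a stage are separate animals and the unit of every test. With 2 mice against 2 an exact permutation test cannot go below p = 0.333, so a single gene could not be tested that way. Genes other than the members were tested on summed counts with the quasi-likelihood test of edgeR 4.0.16 (R 4.3.3; TMM, filterByExpr with a minimum count of 10 and total of 15, stage as the only term) in 5 comparisons, with Benjamini-Hochberg adjustment over all genes tested and a threshold of 0.05. Of the 7 members, 6, 6, 7, 7 and 7 passed that filter in luminal progenitors, differentiated hormone-sensing cells, alveolar progenitors, basal G against NP and basal L against G; *H1fx* and *Hist1h1a* were the ones left out. DESeq2 1.42.0 was an alternative. Scripts were tested on simulated data. Cell classes, the sign-flip tests and figures were made with matplotlib 3.10.9, pandas 2.3.3, scipy 1.17.1 and numpy 2.4.6 in Python 3.11.15. Positions and transcripts are from GENCODE M21 (GRCm38, the assembly that mm10 names), and promoters from RefSeq. The members and gene lists were chosen with earlier results of these data known. Beside the members, the text names the 3 genes most like each, up to 4 genes per list and comparison with the largest fold change past the test and 20 CPM in 1 group, and marker genes. The combined matrix was not used here.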

Additional observations from a re-analysis of the deposited data

Results flagged for a closer look

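The 7 genes were compared over chosen pairs of lineages, and 7 contrasts of a gene in a pair, all of *H1f0* or *Hist1h1c*, were flagged. In these, every mouse lay on one side of the other stage in the first lineage and on the opposite side in the second. The share of all genes with such contrasts was not taken, so nothing is read from their number. Some contrasts use the same difference in the same mice, such as that of *H1f0* in luminal progenitors, and are not independent. The differences between lineages were not tested. For PI against NP, the log2 difference of *H1f0* was lower in luminal progenitors than in differentiated hormone-sensing cells (-4.13) and than in hormone-sensing progenitors (-3.17), and that of *Hist1h1c* was lower in luminal progenitors than in differentiated hormone-sensing cells (-2.85). For L against G, *Hist1h1c* in alveolar progenitors exceeded its value in basal cells (2.33) and in differentiated alveolar cells (2.85). *H1f0* in alveolar progenitors exceeded its value in differentiated alveolar cells (1.95), where it was in turn below its value in basal cells (-1.55). With the milk protein genes left out of the totals, the contrasts that involve differentiated alveolar cells were 2.24 for *Hist1h1c*, and 1.34 and -0.85 for *H1f0*. The members were chosen on these levels.

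In the S class, mouse PI2 stood apart from the other 6 for *H1fx*, with a log2 ratio of -2.32 from 0 UMIs against 2 expected. This was 1 of 14 groups examined, and chance sets off about 1 in 20.

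Cluster C16, which the epithelial comparisons leave out, held the highest *Hist1h1b* and *Hist1h1e* levels of any sum. In its 22 cells of mouse G1 *Hist1h1b* was at 495 CPM, *Hist1h1e* at 652, and *Hist1h1a* and *Hist1h1d* at 49.5 each from 6 UMIs, against at most 238, 284, 40.8 and 22.2 CPM in C1 to C15. The same cells held G2 and M phase genes at 2004 CPM in sum, immune markers at 3480 and *Krt18* at 74.2.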

How the results depend on the processing

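With 2 mice a stage and clusters that hold 20 to 100 cells in some mice, the precision of a level is limited by the spread of 2 animals and, for *Hist1h1a*, *Hist1h1d* and *H1fx*, by few UMIs. The 35 differences of the members were given with no test. Leaving milk protein genes out of the totals turned the sign of none, and in the separate comparison of differentiated alveolar cells it moved *H1f0* from -0.97 to -0.27; fold changes fitted by edgeR with TMM turned *Hist1h1d* in luminal progenitors and *Hist1h1e* in alveolar progenitors, and means over cells turned the former, each from a main log2 difference of 0.17 or less in size. Leaving out 1 mouse turned *Hist1h1e* in alveolar progenitors (without G2 or L1), *Hist1h1a* in differentiated hormone-sensing cells (without PI2) and, in luminal progenitors, *H1fx* (without NP1), *Hist1h1a* and *Hist1h1b* (without NP2) and *Hist1h1d* (without NP2 or PI1), all genes whose groups overlapped. In size, means over cells moved 8 of 35 differences beyond the replicate SD, edgeR fold changes 6 of 33, and leaving out milk protein genes 0. Of the differences that include the mouse left out, 3 of 21 moved so without NP1 and 7 of 21 without NP2. The count was 4 of 14 without L1, 3 of 14 without L2, 1 of 14 without PI1 or PI2, and 0 without G1 or G2.

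The number of genes called by edgeR was 2892, 1714, 2368, 5124 and 6129 in luminal progenitors, differentiated hormone-sensing cells, alveolar progenitors, basal G against NP and basal L against G. DESeq2 size factors in the edgeR fit and no filter on low counts kept these within 1.5 times. The DESeq2 Wald test called 1465 in luminal progenitors, 1029 in alveolar progenitors and 2852 in basal G against NP. Leaving out each mouse in turn gave 1704 to 2472, 928 to 2458, 1625 to 2538, 3412 to 5079 and 4425 to 5600 calls; the count changed by over 1.5 times without NP1 (1704 in luminal progenitors, 1107 in hormone-sensing cells, 3412 in basal cells) and without NP2 (928 in hormone-sensing cells). With the replicate number as a replicate block the counts were 3294, 2058, 2551, 5270 and 6352; mice that share a number are separate animals, and the numbers do not pair them. Of the genes named, DESeq2 lost *H2afv* and *Hmgn2* in luminal progenitors, *Hmga1* in hormone-sensing cells and *Ncbp1* in alveolar progenitors, and *Hist1h2bc* in basal L against G was lost without G2. Without NP1 or PI2 *H2afv* was lost in luminal progenitors, and without NP2 *Hmgn2* there and *Hmgn2* and *Hmga1* in hormone-sensing cells, while the fibroblast marker *Col1a2* changed direction in luminal progenitors. The counts of genes called in a list moved by over 1.5 times in the cases given beside them. The replicate block also raised G2 and M phase genes in hormone-sensing cells from 2 to 6 and S-phase genes from 0 to 1. No filter gave 4 S-phase and 3 G2 and M phase genes in luminal progenitors, 1 and 8 in hormone-sensing cells, and 5 and 13 core histone genes in the 2 basal comparisons; DESeq2 gave 1 core and 1 replacement histone gene in luminal progenitors.

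The sign-flip tests were repeated with other class rules. For the G2/M class, leaving out each mouse gave mean log2 ratios of 4.40 to 4.72 for *Hist1h1b*, 3.17 to 3.68 for *Hist1h1a*, 1.96 to 2.32 for *H1fx*, 1.80 to 2.17 for *Hist1h1e*, 1.82 to 2.22 for *Hist1h1d*, 0.48 to 0.74 for *H1f0* and -0.12 to 0.00067 for *Hist1h1c*. Without PI1 *H1f0* passed the exact permutation test (0.74, adjusted p = 0.0365). Requiring 1 gene more left 6 mice, all higher, with 4.79 for *Hist1h1b*, 3.96 for *Hist1h1a*, 2.29 for *H1fx*, 2.43 for *Hist1h1e* and 2.38 for *Hist1h1d*, and thinning each cell to 2000 UMIs before calling the class also left 6, with 4.05, 3.09, 1.99, 2.43 and 2.24 and *Hist1h1c* at 0.30. With 6 mice the exact permutation test gave an adjusted p of 0.0875 for each of the 5, since fewer mice limit the smallest p. Requiring 1 gene fewer brought *H1f0* past it (0.54, exact permutation adjusted p = 0.0219).

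For the S class, from which cells of the G2/M class were left out, the main ratios lie near 0 or vary widely. Requiring 1 gene fewer gave -0.15 for *H1f0*, -0.0076 for *H1fx*, 0.038 for *Hist1h1b*, 0.19 for *Hist1h1d*, 0.088 for *Hist1h1e* and -0.34 for *Hist1h1c*, the last past the exact permutation test (adjusted p = 0.0469). Requiring 1 more gave -0.024 for *H1f0* and 0.0022 for *Hist1h1e*. Comparison with only those other cells at or above the median UMI total gave 0.23 for *Hist1h1b* and 0.10 for *Hist1h1e*. A pseudocount of 0.1 gave -0.18 for *H1fx*. Thinning to 2000 UMIs left 2 mice and gave -0.0026 for *H1f0* and -0.41 for *Hist1h1c*. It gave 2.28 for *Hist1h1b*, 1.88 for *Hist1h1a*, 1.70 for *H1fx*, 1.42 for *Hist1h1d* and 1.25 for *Hist1h1e*, each higher in both mice. Leaving out each mouse gave -0.071 to 0.087 for *H1f0*, -0.073 to 0.46 for *H1fx*, 0.38 to 0.86 for *Hist1h1a*, -0.29 to 0.24 for *Hist1h1b*, -0.50 to -0.16 for *Hist1h1c*, -1.26 to -0.71 for *Hist1h1d* and -0.16 to 0.056 for *Hist1h1e*. The cause of these changes was not tested.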

Other observations

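*H1f0* was also detected in the clusters that the authors set apart from the epithelium. Endothelial cells (C19) held 172 and 219 CPM in the G mice and 292 and 206 in the L mice. Fibroblasts (C18) held 43.3 and 40.6 CPM in the NP mice, 199 and 99.7 in the G mice and 144 and 143 in the L mice, and immune cells (C17) 50.9 and 48.5 at G and 125 and 99.5 at L. *Hist1h1c* was at 104 to 181 CPM in C19 and at 26.6 to 75.7 in C18. These *H1f0* values lay below the 555 and 663 CPM of *H1f0* in C3, and those of *Hist1h1c* below its 546 and 1149 CPM there.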
